A study of Mus musculus with 40 samples.

Results

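Expression of 10 nuclear receptor genes was measured in 40 male C57BL/6J mice, in RNA from whole pancreas: the retinoid X receptors Rxra, Rxrb and Rxrg, the retinoic acid receptor Rara, the peroxisome proliferator-activated receptors Ppara, Ppard and Pparg, the liver X receptors Nr1h2 (LXR beta) and Nr1h3 (LXR alpha), and the thyroid hormone receptor Thra. They were chosen by gene symbol. Probes for 9 of the 10 genes were annotated, 13 of 25697 probes in all, and no probe was annotated to Nr1h2. Each animal had 1 Illumina MouseRef-8 v2.0 beadchip. The first part of a group name is the diet of the dam and the second the diet of the offspring after weaning, each high fat (HF) or low fat (LF). The groups were HF_HF, LF_HF, HF_LF and LF_LF, with 10 animals each, all young adult males that were fasted before they were killed. Their 12 birth cages were split evenly between dam diets, and animals of 1 cage are not fully independent. Both post-weaning diets occurred in 3 cages of HF dams and 2 of LF dams. The other cages held 1 diet, so diet and cage were partly confounded.

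These receptors are transcription factors that are switched by small fat-soluble molecules. RXR pairs with RAR, PPAR, LXR or the thyroid hormone receptor, and the pair binds repeats of the half-site AGGTCA in DNA. PPAR is switched by fatty acids and turns on genes that burn or store fat, LXR is switched by oxidised cholesterol and turns on genes that export sterols and make fatty acids, and RAR and the thyroid hormone receptor respond to retinoic acid and thyroid hormone.

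The 250 bases before and 50 after the transcription start were available for 9 of the 10 genes (18 promoters, RefSeq, GRCm38.p6). The half-site AGGTCA, searched on both strands, stood in 5 of these 18 promoters, which belong to 4 genes, and in 16.3% of all 32851 mouse promoters of this length. The direct repeats that PPAR and RXR bind (AGGTCANAGGTCA) and that LXR and RXR bind (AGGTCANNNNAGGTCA) contain the half-site, and each stood in 0 of the 18. They stood in 0.0396% and 0.0152% of all promoters. The 3 windows below belong to Pparg and Rxra, the receptor genes with a tested probe whose promoters hold the half-site. They show where letters of the kind these receptors bind lie near their own starts, and half-sites on either strand are in capitals.
Pparg, upstream start, chr6:115360894-115361193, plus strand: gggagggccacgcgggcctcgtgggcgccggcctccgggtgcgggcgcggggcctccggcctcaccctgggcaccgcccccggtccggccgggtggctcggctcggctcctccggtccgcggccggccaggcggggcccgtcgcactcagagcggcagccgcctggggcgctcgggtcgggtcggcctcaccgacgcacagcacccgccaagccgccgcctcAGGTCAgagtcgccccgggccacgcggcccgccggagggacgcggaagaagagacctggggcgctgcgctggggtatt
Pparg, next start, chr6:115362099-115362398, plus strand: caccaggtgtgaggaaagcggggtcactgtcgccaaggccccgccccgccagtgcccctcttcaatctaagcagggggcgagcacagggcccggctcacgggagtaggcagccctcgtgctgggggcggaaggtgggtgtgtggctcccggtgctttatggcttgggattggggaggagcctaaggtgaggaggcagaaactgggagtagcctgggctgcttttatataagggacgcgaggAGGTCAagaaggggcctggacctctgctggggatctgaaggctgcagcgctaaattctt
Rxra, downstream start, chr2:27709042-27709341, plus strand: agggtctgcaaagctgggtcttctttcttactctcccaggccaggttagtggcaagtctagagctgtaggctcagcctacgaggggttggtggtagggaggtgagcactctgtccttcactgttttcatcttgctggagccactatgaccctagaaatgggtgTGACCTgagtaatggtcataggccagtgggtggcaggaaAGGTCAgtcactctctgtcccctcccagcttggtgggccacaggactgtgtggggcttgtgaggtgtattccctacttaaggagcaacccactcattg
The first base of the half-site lay 28 bases before the upstream start of Pparg and 9 bases before its next start. The downstream start of Rxra had a pair of half-sites on opposite strands, and the upstream start had none. The windows differed in CG dinucleotides: 44 at the upstream start of Pparg and 13 at its next start, against 1 at the downstream start of Rxra, 55 at its upstream start and a median of 7 over all promoters. The arrays carry no probe positions here, so a probe could not be tied to any of these starts.

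On the filter for dim probes, 5 probes for 4 of the genes passed: 20 or more of the 40 arrays had to show the probe brighter than that array's median. They were Rxra ILMN_2741479, Rxrb ILMN_1245492 and ILMN_2593038, Pparg ILMN_1221060 and Nr1h3 ILMN_2663374. The background was not subtracted, so the 1143 probes for olfactory receptors were taken as a gauge of unexpressed signal. Whether single ones of these genes are active in pancreas was not tested. Of the olfactory receptor probes 14.1% passed the same filter, so passing it does not by itself show expression. The median signal of the olfactory receptor probes was 58.3 and their 95th percentile lay between 64.3 and 71.4 on the single arrays. Both Rxrb probes and Nr1h3 ILMN_2663374 lay above that percentile on all 40 arrays. Pparg ILMN_1221060 and Rxra ILMN_2741479 did so on 17 arrays each. The other 8 probes, for Rxrg, Rara, Ppara, Ppard, Thra, Pparg (ILMN_1221594 and ILMN_1221893) and Nr1h3 (ILMN_2668472), exceeded it on 0 to 3 arrays, with mean signals of 56.5 to 62.9. These 8 probes gave no signal that could be told from unexpressed genes.

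**Figure D1:**
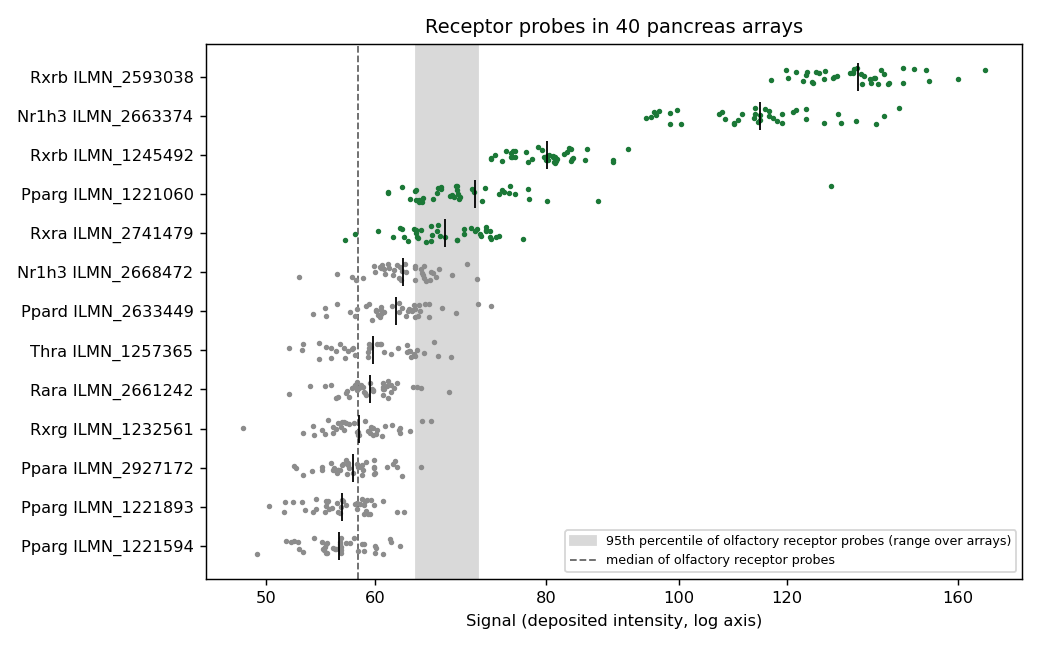
Signal of the 13 receptor probes on each of 40 arrays (points; log axis), with the mean as a black bar. Green probes were tested and grey probes were not. The dashed line is the median of the olfactory receptor probes, 58.3, and the grey band the range of their 95th percentile over the arrays, 64.3 to 71.4. Probes differ in brightness for the same amount of RNA, so positions of different probes are not levels to be ranked.

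The tissue carried its defining genes: Cel, the carboxyl ester lipase of acinar cells, had a median signal of 33674, and the correlation between pairs of arrays was 0.929 to 0.992. The rest of the arrays lay closer to their common median profile than 5 that stood apart: HF_HF replicates 5 and 8, LF_HF replicate 1, HF_LF replicate 5 and LF_LF replicate 1. In a bulk tissue, fewer cells of a type and less RNA per cell cannot be told apart.

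None of the 5 tested receptor probes was called for either diet. Differences are on the log2 scale, HF minus LF, and a probe was called at an adjusted p under 0.05 (limma, Benjamini-Hochberg over 12246 probes). For the dam diet, 0 of 5 were called in LF-fed offspring, where 0% of all tested probes were called, and 0 of 5 in HF-fed offspring, also with 0% of all. For the diet after weaning, 0 of 5 were called in offspring of HF dams, against 2.24% of all probes, and 0 of 5 in offspring of LF dams, against 0.0408%. Averaged over the other diet, 0 of 5 were called for the dam diet, against 0.0653% of all probes, and 0 of 5 for the diet after weaning, against 5.22%. For the interaction 0 of 5 were called, against 0% of all probes. At an unadjusted p under 0.05, 1 of the 5 passed for the dam diet in HF-fed offspring (6.21% of all probes), 1 for the post-weaning diet from HF dams (17.6%), 1 for the average dam diet (9.66%) and 1 for the average post-weaning diet (19.1%). None of the 5 passed for the dam diet in LF-fed offspring (8.58% of all probes), the post-weaning diet from LF dams (8.95%) or the interaction (5.52%). Between pairs of groups, the 95% intervals of the 5 probes lay between a signal ratio of 0.801 and one of 1.24. Signal ratios beyond these lay outside all of the intervals. Background is part of the signal, so these are not limits on the fold in RNA. This matters most for Rxra and Pparg, with mean signals of 67.5 and 71.0 against an olfactory receptor median of 58.3.

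**Figure D2:**
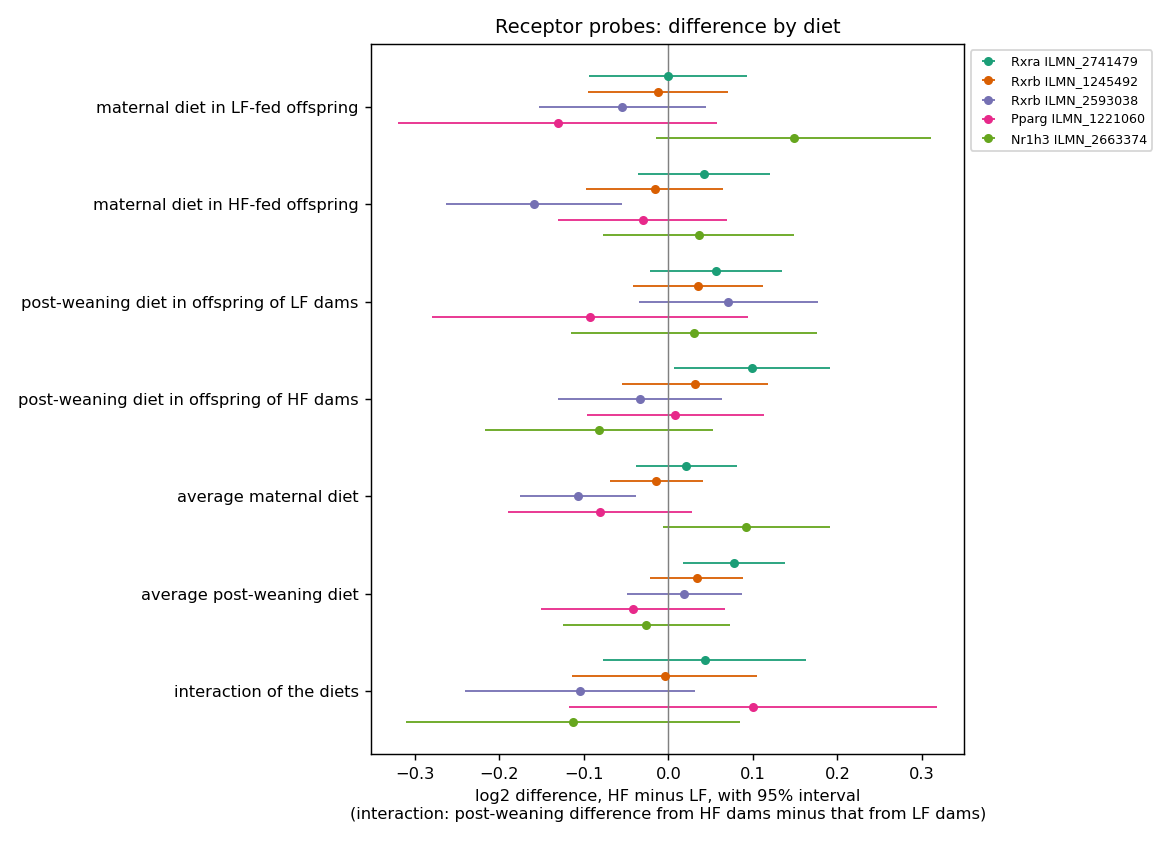
Log2 difference (HF minus LF) of the 5 tested receptor probes in the 7 comparisons, with 95% intervals from limma. The interaction is the post-weaning difference from HF dams minus that from LF dams. The intervals of Rxrb ILMN_2593038 for the dam diet in HF-fed offspring and on average, and of Rxra for the post-weaning diet from HF dams and on average, leave out 0, and none of the differences was called after correction.

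Rxrb, the RXR with signal above the gauge on every array, had the smallest unadjusted p of the receptors. Signals of Rxrb ILMN_2593038 ran from 116.9 over a median of 124.6 to 142.3 in HF_HF mice, against 127.9, 142.5 and 167.5 in LF_HF mice. All 10 HF_HF animals lay below the LF_HF median, 6 of them below every LF_HF animal, and the groups overlapped. The difference was -0.16 ± 0.05 (SE; p = 0.00444, limma adjusted p = 0.75). In LF-fed offspring the signal ran from 119.7 over 130.95 to 145.8 in HF_LF, against 125.2, 137.3 and 160.1 in LF_LF, a difference of -0.05 ± 0.05 (limma adjusted p = 0.762). Averaged over both diets after weaning, it was 130 ± 8.75 in offspring of HF dams and 140 ± 11.0 in offspring of LF dams (SD, n = 20 each), a difference of -0.11 ± 0.03 (SE; p = 0.00292, limma adjusted p = 0.218). Each cage had 1 dam diet, and this p treats animals of a cage as independent. Over 24 alternative fits, cage as a random block and 1 mean per cage among them, the unadjusted p ran from 0.0021 to 0.0259. Their adjusted p ran from 0.14 to 0.528. The other Rxrb probe, ILMN_1245492, did not show this difference. It averaged 80.7 ± 4.15 in HF_HF and 81.6 ± 5.17 in LF_HF (SD, n = 10 each), and its average difference by dam diet was -0.01 ± 0.03 (limma adjusted p = 0.90). After group means were removed, the pair of Rxrb probes had a correlation of 0.0435 over the 40 arrays.

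Rxra, the RXR best known from liver and skin, was not called in any comparison, and its probe lay above the olfactory receptor gauge on 17 of 40 arrays. Rxra ILMN_2741479 ran from 63.0 over a median of 72.25 to 77.0 in HF_HF mice, against 57.1, 66.05 and 72.8 in HF_LF mice. Of the 10 HF_HF animals, 8 lay above the HF_LF median, and the groups overlapped. The difference was 0.10 ± 0.04 (SE; limma adjusted p = 0.249). From LF dams the signal ran from 62.6 over 68.9 to 72.4 in LF_HF, against 58.0, 64.65 and 72.4 in LF_LF, a difference of 0.06 ± 0.04 (limma adjusted p = 0.724). On average the signal was 69.3 ± 4.05 in HF-fed and 65.7 ± 4.61 in LF-fed mice (SD, n = 20 each). That difference of 0.08 ± 0.03 had the smallest adjusted p of the receptors in any comparison (p = 0.0124, limma adjusted p = 0.12), and 19.1% of all probes had an unadjusted p under 0.05 there. This probe lay near the unexpressed range, which compresses any fold.

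**Figure D3:**
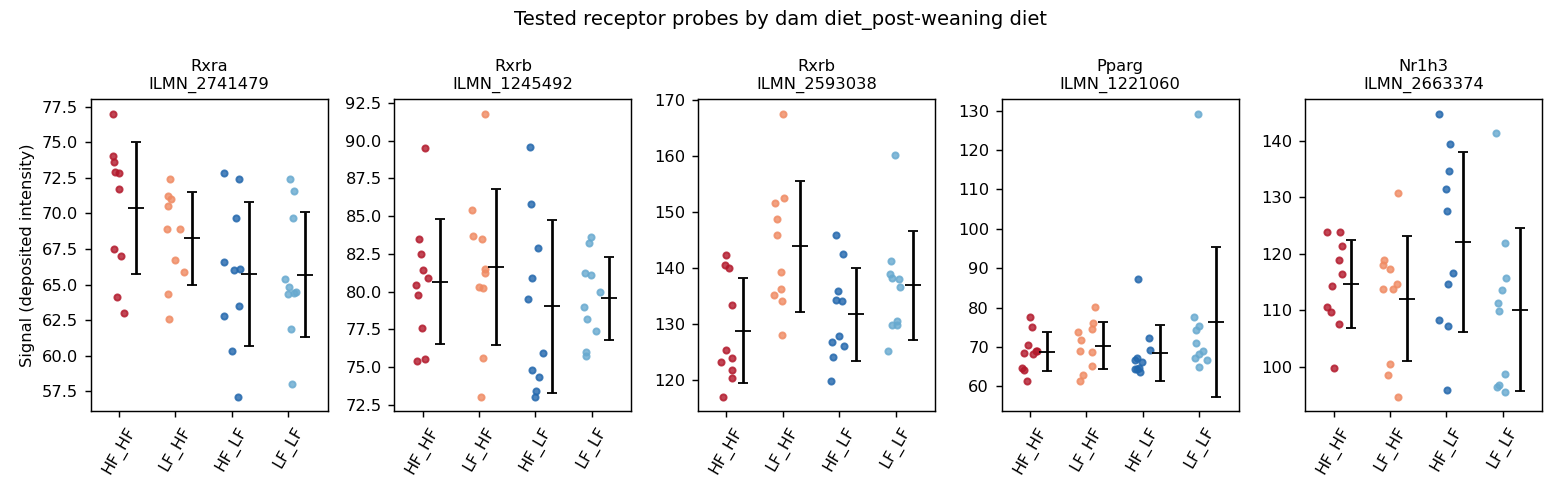
Signal of the 5 tested receptor probes on each array by group (points; dam diet first, post-weaning diet second), with the mean and SD of 10 animals beside them. Axes do not start at 0 and differ between panels. The groups overlap for every probe, and 1 LF_LF animal lies at 129.2 for Pparg.

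Nr1h3, which encodes LXR alpha, varied more between animals than Rxrb did. Nr1h3 ILMN_2663374 ran from 95.9 over a median of 122.05 to 144.8 in HF_LF mice, against 95.4, 110.5 and 141.3 in LF_LF mice. The groups overlapped almost fully, and the difference was 0.15 ± 0.08 (SE; limma adjusted p = 0.604). Without LF_LF replicate 1, its highest animal, the difference was 0.19 (limma adjusted p = 0.469). In HF-fed offspring it averaged 115 ± 7.82 in HF_HF and 112 ± 11.0 in LF_HF (SD, n = 10 each), a difference of 0.04 ± 0.05 (limma adjusted p = 0.94). The differences by post-weaning diet were -0.08 ± 0.07 from HF dams and 0.03 ± 0.07 from LF dams (limma adjusted p = 0.545 and 0.937). The second Nr1h3 probe, ILMN_2668472, was above its array median on 19 arrays and was not tested.

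Pparg, the PPAR that drives fat cell formation, had its highest value in 1 animal. Pparg ILMN_1221060 ran from 63.7 over a median of 66.4 to 87.3 in HF_LF mice, against 65.0, 69.9 and 129.2 in LF_LF mice. The difference was -0.13 ± 0.09 (SE; limma adjusted p = 0.70), and without LF_LF replicate 1, which held the 129.2, it was -0.04 (limma adjusted p = 0.877). In HF-fed offspring it ran from 61.3 over 68.75 to 77.6 in HF_HF, against 61.4, 70.45 and 80.1 in LF_HF, a difference of -0.03 ± 0.05 (limma adjusted p = 0.941).

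The Pparg signal correlated with markers of several cell types across the animals, of which those of fat cells and of connective tissue passed correction. Of 90 correlations between a receptor and the mean of a cell marker list, 5 passed correction (group means removed, 40 arrays, permutation within groups, two-sided, Benjamini-Hochberg). With 8 tested adipocyte markers, Pparg had r = 0.735 (permutation p = 0.00031, adjusted p = 0.00743) and rho = 0.492 (permutation p = 0.00197, adjusted p = 0.0443). Without the 2 arrays farthest from the median of the markers r was 0.37 (permutation p = 0.0248, adjusted p = 0.372), which no longer passed correction. With 10 fibroblast and matrix markers, Pparg had r = 0.464 and rho = 0.512 (permutation p = 0.00033 and 0.00088, adjusted p = 0.00743 and 0.0396), and r = 0.648 without the 2 farthest arrays (permutation p = 5e-05, adjusted p = 0.00405). Within birth cages r was 0.753 for adipocyte and 0.468 for matrix markers (permutation adjusted p = 0.104 for each), which did not pass. Pparg also had r = 0.684 with lymphocyte, 0.545 with endothelial and 0.535 with myeloid markers (permutation adjusted p = 0.215, 0.181 and 0.0515). Without the 2 farthest arrays of each list these were 0.0649, 0.0636 and 0.427 (permutation adjusted p = 0.963, 0.963 and 0.254). LF_LF replicate 1 was the highest LF_LF array for each of these lists. The adipocyte mean was highest in LF_LF replicate 1, at 2.13 log2 units above the mean of the arrays, and Adipoq, the fat cell hormone adiponectin, ran up to 1531 in LF_LF. With the adipocyte mean as a covariate, the Pparg difference by dam diet in LF-fed mice was 0.01 (limma adjusted p = 0.992). The covariate differed in the same comparison: 7 of 8 adipocyte markers were lower in HF_LF than in LF_LF (median -0.46), with 0 called. At an unadjusted limma p under 0.05, 4 of the 8 passed, against 8.58% of all probes. The part of fat cells in the Pparg difference was not tested.

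**Figure D4:**
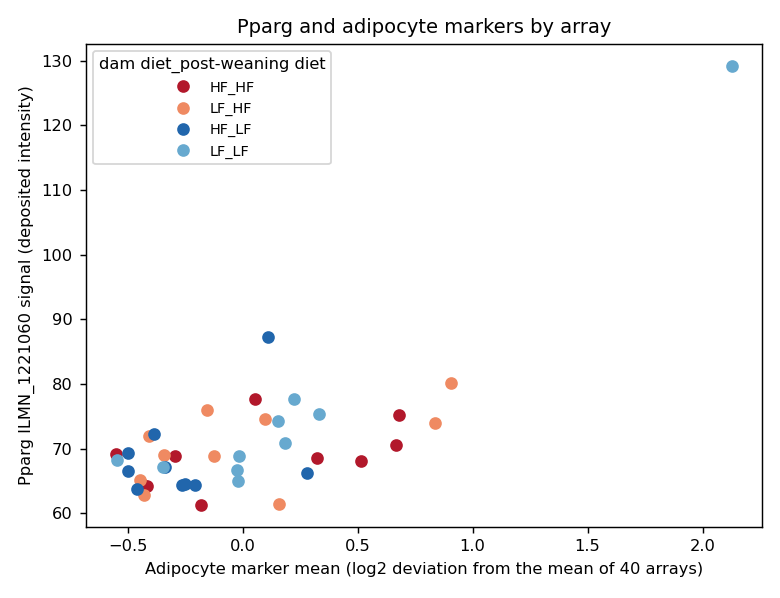
Pparg ILMN_1221060 signal against the mean of 8 adipocyte markers (log2 deviation from the mean of 40 arrays), 1 point per animal, coloured by group. The LF_LF animal at 2.13 and 129.2 lies far from the others.

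The other 3 correlations that passed were of Ppard, a PPAR found in most tissues, whose probe was in the unexpressed range: r = -0.582 with adipocyte, -0.524 with fibroblast and matrix and -0.509 with myeloid markers (permutation adjusted p = 0.0009, 0.00743 and 0.0112). Without the 2 farthest arrays these were -0.582, -0.418 and -0.316 (permutation adjusted p = 0.00405, 0.229 and 0.481). The rho values were -0.606, -0.484 and -0.387 (permutation adjusted p = 0.0054, 0.0443 and 0.166).

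Thra could be compared only without the filter on dim probes. Its probe lay above the olfactory receptor gauge on 0 arrays, with a mean signal of 59.8 against an olfactory receptor median of 58.3. It gave no signal that could be told from unexpressed genes, so the differences below cannot be read as changes in Thra RNA. Thra ILMN_1257365 ran from 54.6 over a median of 57.55 to 60.9 in HF_HF mice, against 51.9, 62.05 and 68.2 in HF_LF mice, a difference of -0.09 ± 0.04 (SE; p = 0.0312, limma adjusted p = 0.377). From LF dams the difference was 0.04 ± 0.04 and on average -0.02 ± 0.03 (limma adjusted p = 0.905 and 0.863). Without the filter 11.4% of 25697 probes had an unadjusted p under 0.05 there and 0.296% were called. Thra overlaps Nr1d1, a repressor of the body clock, on the opposite strand. Whether Thra and Nr1d1 moved in opposite directions was not tested, since the Thra probe lay in the unexpressed range. Nr1d1 ILMN_2749669 ran from 68.9 over 81.45 to 96.9 in HF_HF mice, against 59.4, 70.4 and 79.3 in HF_LF mice. With the filter on dim probes it rose by 0.23 ± 0.06 (SE; limma adjusted p = 0.0411), where 2.24% of all tested probes were called. Without the filter, the setting used for Thra, Nr1d1 was not called (limma adjusted p = 0.0654). The call with the filter was lost when any 1 of 12 of the 20 animals was left out, with an adjusted p of 0.317 within birth cages. From LF dams the same probe, with the filter, differed by 0.01 ± 0.05 and on average by 0.12 ± 0.04 (limma adjusted p = 0.968 and 0.0521). The second Nr1d1 probe, ILMN_1229091, gave 0.18 ± 0.09 from HF dams (limma adjusted p = 0.30).

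The targets of the receptors were compared by the diet after weaning. Of 13 tested LXR targets, 4 were called higher and 0 lower on average over the dam diets (2.75% of all probes were called higher). The median difference was 0.04 in the list and -0.00064 over all probes. The genes called were Lpcat3, which remodels phospholipids, the sterol exporters Abcg5 and Abcg8, and the desaturase Scd2. The list as a whole differed between dam diets. From HF dams 9 of the 13 were higher and 4 lower (median 0.09, 1 called). From LF dams 5 were higher and 8 lower (median -0.03, 0 called). Lpcat3 ran from 282.4 over a median of 302.1 to 369.1 in HF_HF, against 224.1, 248.0 and 322.0 in HF_LF, and from 258.8 over 289.9 to 336.5 in LF_HF, against 194.2, 246.75 and 293.1 in LF_LF. It rose by 0.27 ± 0.05 on average (SE; limma adjusted p = 0.000935). Abcg8 rose by 0.25 ± 0.06, Abcg5 by 0.23 ± 0.06 and Scd2 by 0.12 ± 0.03 (limma adjusted p = 0.00747, 0.0173 and 0.016). Abcg8 and Scd2 had medians of 65.0 to 67.55 in the LF-fed groups, within the unexpressed range. Abcg8 was also called from HF dams, at 0.34 ± 0.08 (limma adjusted p = 0.0367), a call lost without any 1 of 9 of the 20 animals. Abcg5 was no longer called without cage 4 or cage 21, and Scd2 without cage 4 (limma adjusted p = 0.0724, 0.0842 and 0.0837). With the birth cage as a fixed block none of these 4 was called (limma adjusted p = 0.0953 to 0.146). That fit compared the diets only within cages that held both, 3 of HF dams and 2 of LF dams. It therefore rested on fewer animals. With 1 mean per cage and group, which used all cages, Abcg8 and Abcg5 were not called either (limma adjusted p = 0.0717 and 0.14). Lpcat3 and Scd2 stayed called in that fit.

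Of 19 tested PPAR targets, 1 rose and 0 fell on average, with a median difference of -0.02. The share called was 5.26% of the list and 5.22% of all probes, near the background. The gene called was Fgf21, a secreted metabolic hormone that PPAR alpha turns on in liver. Fgf21 ran from 208.2 over a median of 270.6 to 604.0 in LF_HF mice, against 75.7, 130.15 and 182.5 in LF_LF mice, with every LF_HF animal above every LF_LF animal. It ran from 184.5 over 263.9 to 392.0 in HF_HF mice, against 83.4, 139.85 and 256.5 in HF_LF mice, where the groups overlapped. The rise was 1.34 ± 0.18 from LF dams and 0.88 ± 0.18 from HF dams (SE; limma adjusted p = 0.00205 and 0.0155), and 1.11 ± 0.14 on average, or 2.16-fold (limma adjusted p = 4.05e-06). With the birth cage as a fixed block it was still called on average and from HF dams. It was not called from LF dams, where only 2 cages held both diets (limma adjusted p = 0.0778). With 1 mean per cage and group it was called on average, and neither from LF dams nor from HF dams (limma adjusted p = 0.22 and 0.107). Of 10 hepatocyte markers, 9 were higher in LF_HF than in LF_LF (median difference 0.36), with single differences from -0.08 to 1.44. In HF_HF against HF_LF 8 of 10 were lower (median -0.33), with single differences from -0.60 to 0.85. None was called in either. At an unadjusted limma p under 0.05, 1 of 10 passed from LF dams (8.95% of all probes) and 6 of 10 from HF dams (17.6%). The hepatocyte mean was highest in LF_HF replicate 1, at 3.00 log2 units above the mean of the arrays. On average over the dam diets, 10 of 10 myeloid markers were higher in HF-fed mice (median 0.07), as were 8 of 10 fibroblast and matrix markers (0.10) and 7 of 8 adipocyte markers (0.04), 0 of them called. Of 15 acinar markers 2 were called higher, or 13.3%, against 2.75% of all probes. Of the 15, 9 were higher and 6 lower, with a median of 0.01 and a highest difference of 0.45. From HF dams the medians were 0.24 for myeloid, 0.20 for fibroblast and matrix and 0.27 for adipocyte markers, again with 0 called. From LF dams the medians had the opposite sign. There 8 of 8 adipocyte markers were lower (median -0.15), as were 8 of 10 myeloid (-0.06) and 6 of 10 fibroblast and matrix markers (-0.01), with 0 called. The mean of the myeloid markers, as log2 deviation from the mean of the arrays, ran from -0.32 to 1.47 in HF_HF, against -0.35 to 0.13 in HF_LF, and from -0.32 to 0.35 in LF_HF, against -0.22 to 1.17 in LF_LF, so the groups overlapped. The part of these lists in the rises of Fgf21 and the LXR targets was not tested.

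**Figure D5:**
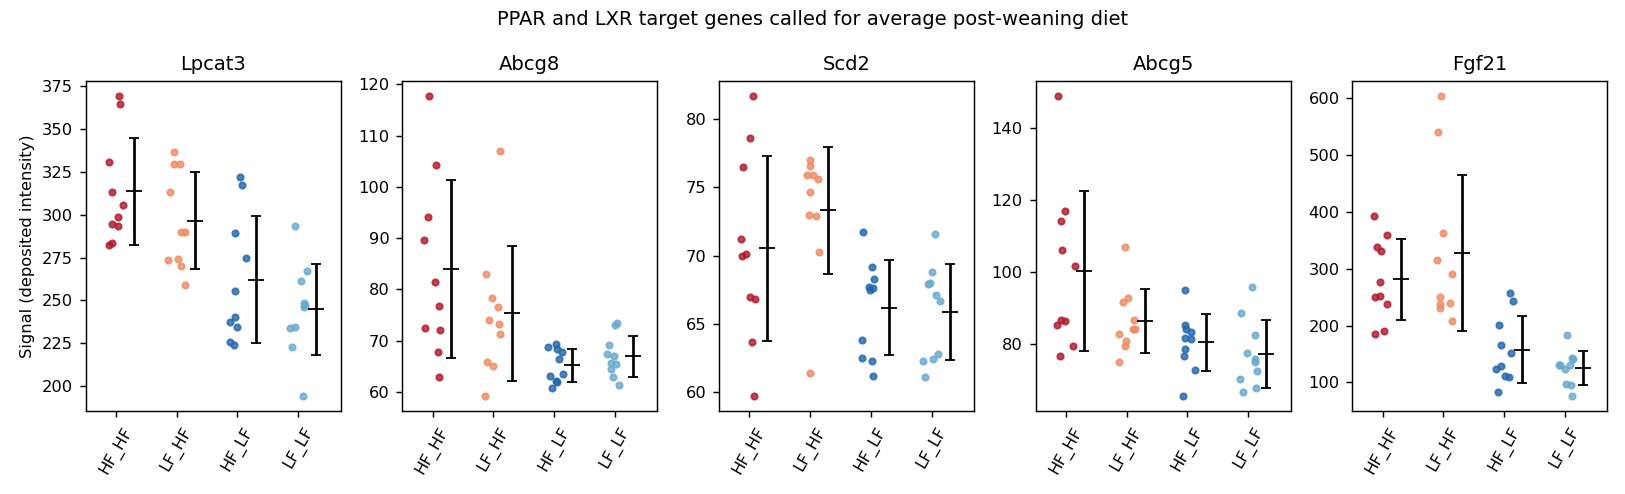
Signal of the LXR and PPAR target genes called for the post-weaning diet on average, on each array by group (points), with the mean and SD of 10 animals. Axes do not start at 0. Fgf21 in LF_HF animals lies above all LF_LF animals, and the other genes overlap between groups.

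In the lists of coregulators and of retinoid genes 1 gene each was called for the average post-weaning diet, which is 7.69% and 12.5% of their lists, against 5.22% of all probes. From 1 gene nothing can be read about a list. Of 13 tested coregulators, Ncoa4, a coactivator that also steers ferritin to breakdown, fell by 0.15 on average with the HF diet after weaning (SE 0.04; limma adjusted p = 0.00894), and it was not called with the birth cage as a fixed block (adjusted p = 0.233). Of 8 tested genes of retinoid metabolism and RAR targets, Rdh11, a retinal reductase, rose by 0.13 ± 0.04 (limma adjusted p = 0.0238), a call lost without any 1 of 5 of the 12 cages. Tgm2, a transglutaminase induced by retinoic acid, rose by 0.33 ± 0.09 from HF dams (limma adjusted p = 0.0413), a call lost without any 1 of 13 of the 20 animals. It was 1 of the 8, or 12.5%, where 2.24% of all probes were called. None of 10 other RXR partners and orphan receptors and none of 7 thyroid hormone pathway genes was called in any comparison by its representative probe. Among the representative probes of these partners, the smallest unadjusted p for the average post-weaning diet was that of Nr2f6, an orphan receptor, at 0.14 ± 0.05 for the average post-weaning diet (limma adjusted p = 0.0691). For the dam diet no gene of these lists was called in any comparison by that probe. The smallest adjusted p for it was that of Acaa2, a mitochondrial thiolase and PPAR target, on average: 0.16 ± 0.05 (limma adjusted p = 0.143). With HF dams 15 of 19 PPAR targets were higher in LF-fed offspring (median 0.09) and 14 of 19 in HF-fed offspring (0.04). On average it was 15 of 19 (median 0.06, against -0.0003 over all probes). Whether this list moved as a set was not tested.

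The genes most like each receptor across the 40 animals, after group means were removed, are a description with no test. For Rxrb ILMN_2593038 they were Mrpl38, Rbfa and Mrps34, with r = 0.671, 0.651 and 0.647. For Nr1h3 they were Hsd17b4, Hyal2 and Psmd4, with r = 0.712, 0.677 and 0.641. For Rxra they were Csad, Usf2 and Glg1, with r = 0.554, 0.54 and 0.535. For Pparg they were St6gal1, Prnp and Hcst, with r = 0.861, 0.842 and 0.829, and 0.558, 0.625 and 0.474 without the 2 animals with the most extreme Pparg signal. Among the tested receptors, Rxra and Rxrb ILMN_2593038 had r = 0.457, and the other pairs of different genes lay between -0.134 and 0.294. All arrays share the normalization, which can add to such correlations.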

How the data were processed

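Pancreas RNA of 40 mice was hybridised to Illumina MouseRef-8 v2.0 beadchips. The deposited values are linear intensity that the authors exported with BeadStudio (version not given in the sources used here) and quantile normalized over the 40 arrays, without background subtraction, which compresses folds of dim genes. Values were transformed to log2 and 12246 of 25697 probes were tested. Groups, taken from the dam and offspring diets in the labels, were compared with limma 3.58.1 in R 4.3.3 (moderated test with intensity trend, two-sided, Benjamini-Hochberg): 4 pairs of groups on 20 arrays each, and both average diet effects and the interaction on 40. Pathway genes were represented by their brightest tested probe. Named were all receptor probes, up to 4 called genes per list and comparison or the gene with the smallest p, and the 3 genes most like each receptor. Marker correlations used 100000 permutations. The receptors and lists were chosen with earlier results of these data known. Alternatives covered the fit, filter, normalization, background, array weights, cage, adipocyte covariate and leaving out arrays or cages. The procedure was tested on simulated data with independent animals: for the 4 pairs and 12246 probes each, 78% to 86% of probes moved 1.2-fold were recovered. The number of arrays limits the precision, and p-values treat animals of a cage as independent unless the cage is named.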

Additional observations from a re-analysis of the deposited data

Results flagged for a closer look

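In 52 groups of 10 arrays, 1 per receptor probe and diet group, 4 had a highest animal whose gap to the next exceeded Dixon's limit. Chance flags about 1 in 20 such groups. For Pparg ILMN_1221060, LF_LF replicate 1 had a signal of 129.2, with the others at 65.0 to 77.7, and HF_LF replicate 5 had 87.3, with the others at 63.7 to 72.2. For Rxrb ILMN_2593038, LF_LF replicate 4 had 160.1, with the others at 125.2 to 141.2. For Rxrg ILMN_1232561, LF_LF replicate 1 had 65.0, with the others at 54.1 to 59.6.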

How the results depend on the processing

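No receptor probe was called in any of the 208 alternative fits, and leaving out each array gave 0 to 0 called receptor probes. The smallest adjusted p of a receptor in any of them was 0.0529, for Rxra and the average post-weaning diet with array weights. Of 35 differences of receptor probes, 15 changed sign in at least 1 alternative while staying uncalled. Against 5 correlations with marker lists that passed, there were 4 with rho, 2 without the 2 farthest arrays and 0 with cage means removed; the cause was not tested. No paired analysis was possible because replicate numbers were given in accession order and only name animals; this concerns those numbers alone, since the birth cage was used as a fixed block for the post-weaning diet. That block could not be fitted for the dam diet, since each cage had 1 dam diet. For the post-weaning diet it drew only on the 3 cages of HF dams and 2 of LF dams with both diets. Dim signal and missing background subtraction limit what can be seen of the 8 untested probes.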
